A study of Mus musculus with 22 samples.

Results

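Genes that the transcription factor ATF4 is known to induce were followed in distal colon RNA of mice with and without inherited colitis. The 10 members, Chac1, Trib3, Asns, Sesn2, Psat1, Phgdh, Psph, Shmt2, Mthfd2 and Slc7a11, were taken by gene symbol from 46078 annotated genes in the count table, and each symbol matched 1 row. They were chosen by their known place downstream of ATF4 with the group differences of these libraries already in view, Chac1 among the increases seen earlier in Winnie. Differences of the members between groups are therefore a description: it is said which members passed the limits used for all genes, and this is no test of the members as a set. The study took bulk RNA from C57BL/6 controls at 14 weeks of age (8 mice, 4 male and 4 female), Winnie at 14 weeks (7 mice, 3 male and 4 female) and Winnie-Prolapse at 18 weeks (7 mice, 4 male and 3 female). Winnie mice carry a missense mutation in Muc2, the gene of the main secreted colonic mucin, and develop chronic colitis spontaneously. Winnie-Prolapse are Winnie mice with a rectal prolapse, and the controls came from the same colony. Because every Winnie-Prolapse mouse was older, age and prolapse cannot be told apart in its comparisons.

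ATF4 is the effector of the integrated stress response, in which kinases that sense amino acid shortage, unfolded protein in the endoplasmic reticulum (ER), haem lack or viral RNA phosphorylate the initiation factor eIF2α. General translation then falls while ATF4 protein is made more efficiently from its own mRNA, so that the pathway can be active without a change in Atf4 transcript. ATF4 dimers bind a composite C/EBP-ATF site and raise genes for amino acid synthesis, uptake and tRNA charging, together with regulators that feed back on the response.

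The composite site is shown for the members whose promoter window held it. Because the members were chosen as known ATF4 targets, their share of matches is not independent of that choice, and nothing is read from it. The search used TGATGNAA on both strands of windows from 250 bases before to 50 bases after each annotated start, with RefSeq starts on GRCm38.p6. Of 32851 such windows over all genes 3.97% held a match, and 4 of the 10 members did (Chac1, Trib3, Asns and Slc7a11). Slc7a11 held 2 matches. All sequences run 5′ to 3′ on the strand of the gene, and capitals mark the match or its reverse complement.
Chac1, plus strand, chr2:119350992-119351241, the 250 bases before the start: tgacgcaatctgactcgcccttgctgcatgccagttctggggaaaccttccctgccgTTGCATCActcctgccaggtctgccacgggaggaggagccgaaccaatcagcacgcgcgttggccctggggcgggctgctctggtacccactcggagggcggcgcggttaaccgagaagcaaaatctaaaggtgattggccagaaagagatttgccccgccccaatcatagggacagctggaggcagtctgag
Trib3, minus strand, chr2:152344031-152344054, 24 bases around a match after the start: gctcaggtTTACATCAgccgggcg
Asns, minus strand, chr6:7693210-7693459, the 250 bases before the start: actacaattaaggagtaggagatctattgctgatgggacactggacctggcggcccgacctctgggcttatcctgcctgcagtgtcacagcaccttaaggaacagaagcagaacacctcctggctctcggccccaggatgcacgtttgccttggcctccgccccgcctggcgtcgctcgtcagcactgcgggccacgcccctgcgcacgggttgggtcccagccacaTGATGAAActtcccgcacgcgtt
Slc7a11, minus strand, chr3:50443614-50443863, the 250 bases before the start: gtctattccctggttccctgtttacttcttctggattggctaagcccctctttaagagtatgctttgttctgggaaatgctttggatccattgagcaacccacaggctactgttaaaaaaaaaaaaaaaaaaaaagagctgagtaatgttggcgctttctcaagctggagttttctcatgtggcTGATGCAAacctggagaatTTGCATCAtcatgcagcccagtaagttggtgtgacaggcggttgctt
The Chac1 match lay at -193 to -186 and the Trib3 match at 15 to 22, both in reverse orientation. In Asns it lay at -23 to -16 in forward orientation. The Slc7a11 matches lay at -66 to -59 forward and at -47 to -40 reverse. The stricter TGATGCAA, every match of which is also a match of the first motif, was in 0.895% of all windows and in Chac1 and Slc7a11. The antioxidant core TGACNNNGC was in 12.4% of windows and in 4 members, Phgdh, Sesn2, Psph and Asns. The ER stress element, searched as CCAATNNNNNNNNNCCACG, was in 0.119% of windows and in 0 of the members. These are letter matches and not measured binding sites.

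The members are protein-coding genes spread over 7 chromosomes of GRCm38. Chac1 (chr2:119351229-119354381) and Trib3 (chr2:152337422-152344032) lie on chromosome 2, Phgdh (chr3:98313170-98339990) and Slc7a11 (chr3:49892526-50443614) on chromosome 3, and Asns (chr6:7675169-7693254) and Mthfd2 (chr6:83305691-83325908) on chromosome 6. The rest are Sesn2 (chr4:132492032-132510501), Psph (chr5:129765558-129787449), Shmt2 (chr10:127517123-127522444) and Psat1 (chr19:15904678-15947337).

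Libraries held 24.8 to 36.3 M counts, so that 3 counts corresponded to 0.0825 to 0.121 CPM (the counts of a gene scaled to the library total), and every member lay above this in every library. No pair of libraries within a group was near identical (lowest chi-square per degree of freedom 28.8). Winnie-Prolapse replicate 6 stood apart, with 18.0% of its counts in 6 milk protein genes. Counts of calls and fold changes were also computed without it. Markers of other cells differed between the groups. The summed CPM of 6 smooth muscle genes had a median of 8315 among the controls, 3446 in Winnie and 2208 in Winnie-Prolapse, and 10 proliferation genes had medians of 328, 559 and 714. Neutrophil markers (6 genes) ranged from 0.362 to 3.05 in C57BL/6, from 1.41 to 125 in Winnie and from 66.8 to 1355 in Winnie-Prolapse. Plasma and B cell markers (8 genes) had medians of 418, 1063 and 1458, and 7 squamous epithelium markers had medians of 6.73, 29.0 and 345. Goblet cell markers (8 genes) overlapped between groups, from 10942 to 16400 with a median of 12813 in C57BL/6, from 6963 to 23882 with a median of 9624 in Winnie, where replicates 4 and 6 lay above every control, and from 4202 to 13647 with a median of 5234 in Winnie-Prolapse. Medians were 57.2, 87.4 and 154 for macrophage and monocyte markers (7 genes), and 7.15, 17.1 and 28.9 for T cell markers (6 genes). The 8 epithelial markers overlapped between groups (8902 to 12530, 9672 to 14481 and 7996 to 14614), and in no group was a marker at 0 in every library. In bulk tissue, fewer cells of a type and less RNA per cell cannot be told apart, and the part of these shifts in the results on the members was not tested.

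**Figure D1:**
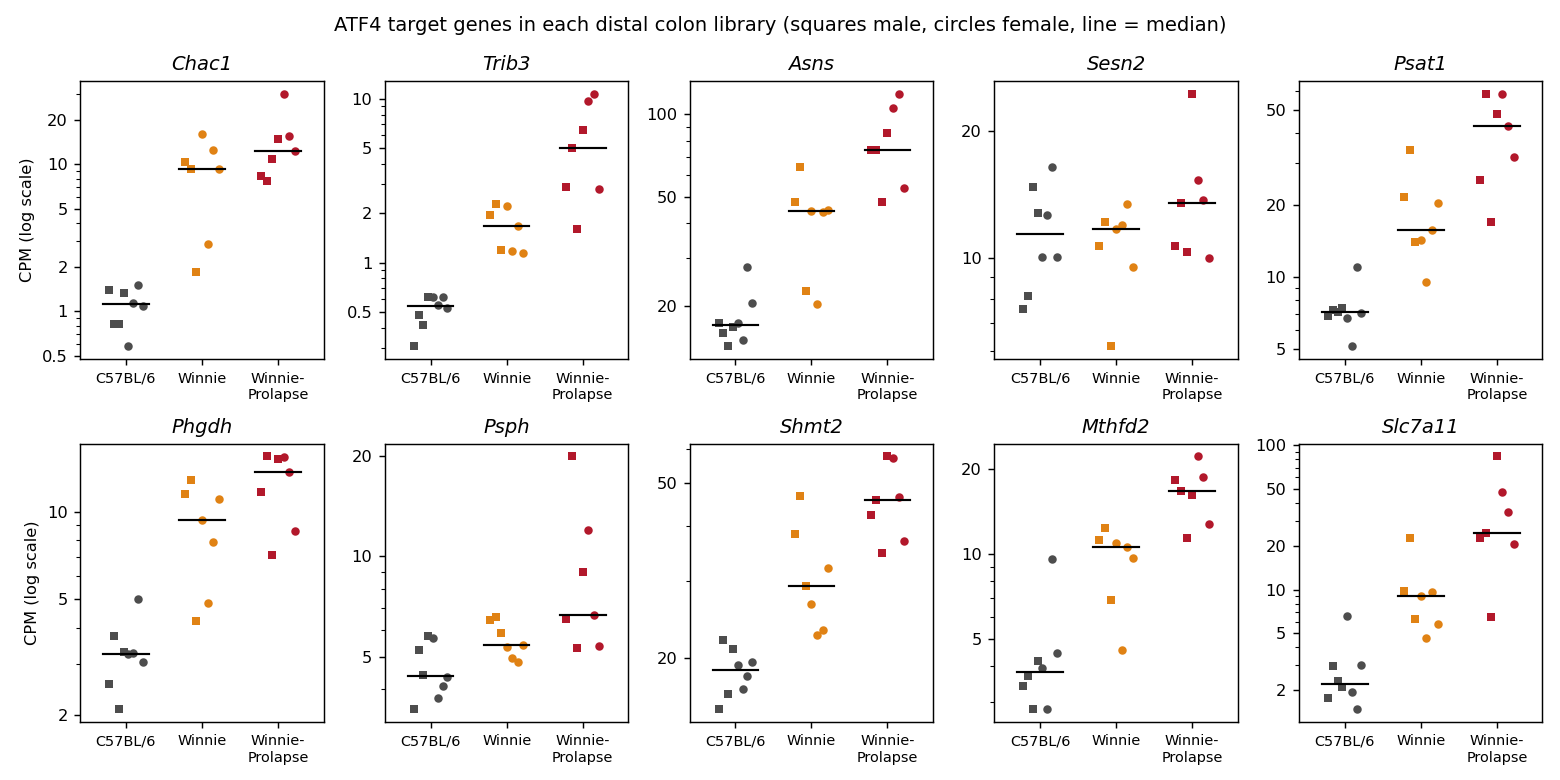
Level of each member in each library in CPM on a log axis. Squares are males, circles females and the line is the median of 8 C57BL/6, 7 Winnie or 7 Winnie-Prolapse libraries. Chac1, Trib3 and Shmt2 separated C57BL/6 from Winnie without overlap, whereas Sesn2 overlapped in all groups.

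The term called is used for genes with a difference of at least 1.5-fold and an adjusted p under 0.001 in the quasi-likelihood test of edgeR, adjusted over all genes tested by the Benjamini-Hochberg method. In Winnie against C57BL/6, 2 of the 10 members were called higher (Chac1 and Trib3) beside 0.0868% of all genes tested called higher and 0.00578% called lower. At adjusted p under 0.05 and the same fold, 8 of 10 members were higher, beside 7.42% of all genes (8.53% lower). All Winnie libraries lay above all C57BL/6 libraries for 3 members, a separation found for 0.463% of genes. The median log2 fold change of the members was 1.35 and that of all genes was -0.01. In Winnie-Prolapse against C57BL/6, 8 of 10 members were called higher, beside 9.84% of all genes (8.47% lower), and 9 at adjusted p under 0.05, beside 16.7% (17.7% lower). The groups separated completely for 7 members, beside 6.50% of genes, and the median log2 fold change was 2.12 against -0.01 over all genes. These comparisons share the C57BL/6 libraries. In Winnie-Prolapse against Winnie, 0 members were called with edgeR, as for 0% of all genes, and DESeq2 called 2, beside 2.31% of all genes it tested. At unadjusted p under 0.05 there were 7 members, beside 27.8% of all genes. At adjusted p under 0.05 with the fold limit there were 5 (Trib3, Asns, Psat1, Mthfd2 and Slc7a11), beside 4.27% of all genes (2.72% lower). No member separated completely there, beside 0.411% of genes, and the median log2 fold change was 0.74 against 0.01. Against C57BL/6 the genes at adjusted p under 0.05 with the fold limit were the same whichever library was left out, 8 in Winnie and 9 in Winnie-Prolapse. Between the mutant groups that count ran from 1 to 7. It was 1, Trib3, without Winnie replicate 3, 4, 5 or 6 or Winnie-Prolapse replicate 4, 5 or 6, 2 without Winnie replicate 7, 3 without Winnie-Prolapse replicate 2 and 5 or more without any other. As the members were picked with these contrasts known, nothing is read from the shares. The Winnie count rested on single libraries. It was 7 without Winnie replicate 5, where calls over all genes numbered 677 in place of 16, 2 without C57BL/6 replicate 7 or Winnie replicate 3, 1 without Winnie replicate 4 and 0 without any other single library.

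Among the regulators, Chac1 encodes an enzyme that cleaves cytosolic glutathione. Its levels ran from 0.579 through a median of 1.12 to 1.52 CPM in C57BL/6, from 1.85 through 9.31 to 16.2 CPM in Winnie and from 7.73 through 12.3 to 30.2 CPM in Winnie-Prolapse. Every library of either mutant group was above every control. Winnie replicates 3 and 5 were low for their group, and only 1 Winnie-Prolapse library exceeded all Winnie libraries. The log2 fold change from C57BL/6 was 3.14 ± 0.41 (SE) in Winnie and 3.79 ± 0.31 in Winnie-Prolapse, and Winnie-Prolapse differed from Winnie by 0.65 ± 0.44. The Winnie call held in 3 of 15 fits with a library left out (without C57BL/6 replicate 7 or Winnie replicate 3 or 5), while the log2 fold change stayed between 2.92 and 3.33. It held in 4 of 8 other settings, with log2 fold changes of 2.85 to 3.15. It was lost without TMM factors, with limma-voom, with at least 10 counts in every library and with sex in the model.

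Trib3 encodes a pseudokinase that feeds back on ATF4. It was the lowest member in CPM in controls, at 0.308, 0.540 and 0.617 CPM (lowest, median and highest). The corresponding values were 1.14, 1.67 and 2.27 CPM in Winnie and 1.60, 5.01 and 10.8 CPM in Winnie-Prolapse. Both mutant groups lay wholly above the controls, and 6 of 7 Winnie-Prolapse libraries lay above all Winnie libraries. The log2 fold changes from C57BL/6 were 1.77 ± 0.21 (SE) and 3.54 ± 0.39, with 1.77 ± 0.40 between the mutant groups. The Winnie call of Trib3 held in 4 of 15 fits with a library left out (without C57BL/6 replicate 7 or Winnie replicate 3, 4 or 5). It held in 4 of 7 other settings, and was lost with all 3 groups in one fit, without TMM factors and with limma-voom. The log2 fold change there stayed between 1.69 and 1.79. Trib3 moved most when the milk-rich library was removed, to 3.22 against C57BL/6 and 1.43 against Winnie.

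Sesn2, a sestrin that senses leucine and restrains mTORC1, differed least. It ranged from 7.55 through 11.4 to 16.4 CPM in C57BL/6, from 6.17 through 11.7 to 13.4 CPM in Winnie and from 10.01 through 13.5 to 24.5 CPM in Winnie-Prolapse. All groups overlapped. The log2 fold changes were -0.01 ± 0.19 (SE) in Winnie and 0.34 ± 0.20 in Winnie-Prolapse, with 0.36 ± 0.21 between the mutant groups. The sign of the Winnie value changed with the processing.

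Asns encodes the enzyme that makes asparagine. Its levels in C57BL/6 ran from 14.2 through 17.0 to 27.7 CPM, in Winnie from 20.3 through 44.4 to 64.3 CPM and in Winnie-Prolapse from 47.8 through 74.2 to 119 CPM. Winnie overlapped the controls in 2 libraries and Winnie-Prolapse did not overlap them. The log2 fold changes were 1.28 ± 0.23 (SE) and 2.24 ± 0.21, and 0.97 ± 0.28 between the mutant groups.

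Serine is made from a glycolytic intermediate in 3 steps, by Phgdh, Psat1 and Psph in that order. Phgdh, the first enzyme, ran from 2.09 through 3.25 to 5.04 CPM in C57BL/6, from 4.20 through 9.36 to 12.8 CPM in Winnie and from 7.11 through 13.7 to 15.6 CPM in Winnie-Prolapse. Psat1, the aminotransferase, ran from 5.11 through 7.10 to 10.98 CPM, from 9.52 through 15.8 to 33.8 CPM and from 16.9 through 42.6 to 58.4 CPM in the same order. Psph, the final phosphatase, ran from 3.49 through 4.38 to 5.78 CPM, from 4.83 through 5.42 to 6.57 CPM and from 5.33 through 6.69 to 19.9 CPM. Phgdh and Psat1 separated Winnie-Prolapse from C57BL/6 completely, and in Winnie 5 and 6 of 7 libraries lay above all controls. For Psph the groups overlapped, with 3 of 7 Winnie and 5 of 7 Winnie-Prolapse libraries above all controls. The log2 fold changes in Winnie were 1.52 ± 0.25 (SE) for Phgdh, 1.41 ± 0.22 for Psat1 and 0.38 ± 0.12 for Psph. In Winnie-Prolapse they were 2.0 ± 0.20, 2.52 ± 0.23 and 1.05 ± 0.23, of which the first 2 were called. Between the mutant groups they were 0.48 ± 0.26, 1.11 ± 0.28 and 0.68 ± 0.23. Psph was called without Winnie-Prolapse replicate 3 (1.14) or 7 (1.10). Exons of Psph overlap exons of Cct6a on the other strand, and the strand setting of the counting is not given in the sources used here, so reads of the pair may be mixed.

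Shmt2 and Mthfd2 pass the carbon of serine into the mitochondrial folate cycle. Shmt2, which splits serine to glycine, ran from 15.3 through 18.7 to 21.98 CPM in C57BL/6, from 22.5 through 29.1 to 46.7 CPM in Winnie and from 34.7 through 45.8 to 57.6 CPM in Winnie-Prolapse. No Winnie or Winnie-Prolapse library reached down to the controls, and the log2 fold changes were 0.83 ± 0.14 (SE) and 1.39 ± 0.10, with 0.56 ± 0.16 between the mutant groups. Exons of Shmt2 overlap those of Ndufa4l2 on the other strand, with the same limit as for Psph. Mthfd2, a methylenetetrahydrofolate dehydrogenase, ran from 2.82 through 3.81 to 9.60 CPM, from 4.56 through 10.6 to 12.3 CPM and from 11.4 through 16.7 to 22.1 CPM. Its control range was widened by C57BL/6 replicate 7, and 5 of 7 Winnie libraries lay above all controls. The log2 fold changes were 1.21 ± 0.27 and 2.01 ± 0.25, and Winnie-Prolapse differed from Winnie by 0.81 ± 0.22.

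Slc7a11, the cystine-glutamate exchanger that supplies cysteine for glutathione, varied most among mice, with coefficients of variation of 58.6%, 62.8% and 73.4% in the 3 groups. It ran from 1.49 through 2.21 to 6.56 CPM in C57BL/6, from 4.59 through 9.05 to 22.7 CPM in Winnie and from 6.41 through 24.9 to 83.8 CPM in Winnie-Prolapse. Both mutant groups overlapped the controls only through C57BL/6 replicate 5, the highest control, and 4 of 7 Winnie and 6 of 7 Winnie-Prolapse libraries lay above it. The log2 fold changes were 1.89 ± 0.35 (SE) and 3.69 ± 0.44, with 1.80 ± 0.45 between the mutant groups.

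**Figure D2:**
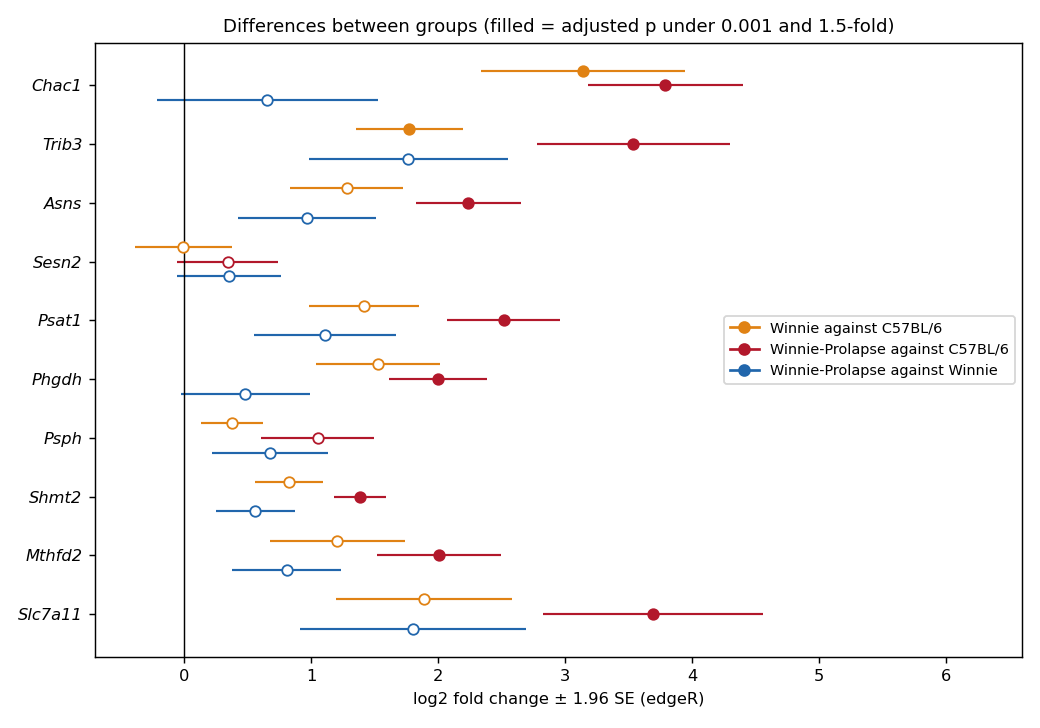
Log2 fold change of each member on the horizontal axis in the 3 comparisons, with bars of about 2 standard errors on either side (the exact factor is on the axis) and points filled where called. Chac1 and Trib3 were called in Winnie, 8 members in Winnie-Prolapse against C57BL/6 and none between the mutant groups.

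Levels of different genes were compared per exon length, as RPKM (CPM per kilobase of exon). In C57BL/6 the order by mean began with Asns at 6.61 ± 1.58 RPKM (SD, n = 8) and Shmt2 at 5.98 ± 0.73 RPKM, which overlapped within their spread, and Sesn2 followed at 3.32 ± 0.90 RPKM. Chac1 at 0.666 ± 0.200 RPKM, Trib3 at 0.243 ± 0.052 RPKM and Slc7a11 at 0.199 ± 0.116 RPKM were lowest, the latter pair within their spread. The place of Slc7a11 depends on its exon length, 13922 bases over all annotated exons, against 1637 for Chac1 and 2125 for Trib3. By CPM its control mean of 2.77 was above those of Chac1 (1.09) and Trib3 (0.516). In Winnie-Prolapse Asns was again first at 29.2 ± 9.41 RPKM (SD, n = 7), and Chac1 reached 8.72 ± 4.66 RPKM, within the spread of Psat1 at 9.44 ± 3.78 RPKM.

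The same mice tended to be high or low for several members. Winnie replicate 2 was the highest of its group for 8 of 10 members, and replicates 3 and 5 were lowest for 3 and 5 of them. Replicate 2 also had the highest summed proliferation markers of the Winnie libraries (909 CPM) and the highest neutrophil markers (125 CPM), and replicate 5 the lowest of both (336 and 1.41 CPM). Replicate 3, also low for the members, was second highest for proliferation markers (765 CPM) and in the middle for neutrophil markers (12.3 CPM). Smooth muscle markers were highest of the Winnie libraries in replicate 3 (7309 CPM) and next in replicate 5 (6758 CPM), both within the control range of 6686 to 12048 CPM, against 3446 CPM in replicate 2. Replicates 3 and 5 also had the lowest T cell markers (12.6 and 13.1 CPM) and plasma and B cell markers (537 and 561 CPM) of the group, and replicate 3 the lowest goblet markers (6963 CPM). Goblet markers were next lowest in replicate 2 (7135 CPM), which was high for the members, and then in replicate 5 (8796 CPM). Winnie-Prolapse replicate 3 was lowest for 8 members and had the lowest proliferation markers (306 CPM) and the highest smooth muscle markers (3178 CPM) of its group. It also had the highest epithelial markers (14614 CPM) and the second highest goblet markers (10584 CPM) of that group. C57BL/6 replicate 7 was highest for 6 members and had the highest smooth muscle (12048 CPM), epithelial (12530 CPM) and squamous markers (47.4 CPM) of the controls, and the lowest neutrophil (0.362 CPM) and macrophage markers (30.7 CPM). The part of these markers in the member levels was not tested.

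**Figure D3:**
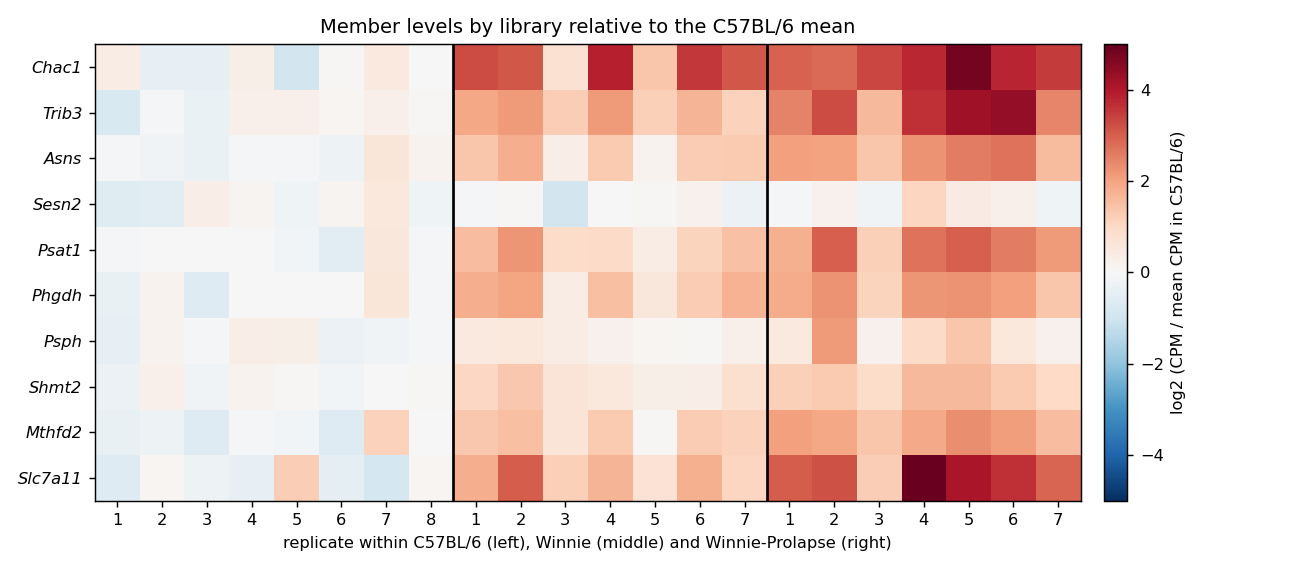
Log2 ratio of each member's CPM to its C57BL/6 mean, with members in rows and the 22 libraries in columns by group and replicate. Winnie replicates 3 and 5 together held the lowest value of their group for 8 of 10 members, as did Winnie-Prolapse replicate 3 for 8 of its group. The Sesn2 row overlapped between groups.

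Without Winnie-Prolapse replicate 6, 8 members were called against C57BL/6, 7 separated completely and the median log2 fold change was 2.002, where 8.78% of all genes were called higher and 7.58% separated. Against Winnie 0 were called (0% of all genes) and the median was 0.71. Asns had 119 CPM in that library and 145 CPM when its milk genes were removed from the total, against 73.4 ± 21.0 CPM (SD, n = 6) in the rest of its group. The log2 fold change of Asns against C57BL/6 was 2.06 without it. Over the 10 members, leaving it out moved the log2 fold change by between -0.32 and 0.03 against C57BL/6 and by between -0.34 and 0.02 against Winnie, with Trib3 moving most in both.

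Sex was not used in choosing the members, so it could be tested. With group as covariate, 0 of 10 members differed between males and females (smallest adjusted p 0.966, edgeR; 0 at unadjusted p under 0.05 and 0 with DESeq2), beside 14 of 17769 genes or 0.0788%. The difference between sexes did not itself differ detectably between Winnie and C57BL/6 (smallest adjusted p of a member 0.438, edgeR) or between Winnie-Prolapse and C57BL/6 (0.963).

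Genes whose pattern most resembled that of Chac1 were ordered by Pearson's r of log2 CPM after subtracting group means, over 22 libraries and 13597 genes. Genes other than the members had to pass a floor on mean log2 CPM. Trib3, with means of 0.549 in males and 0.754 in females, lay below that floor and was kept as a member. The 5 nearest were Sdf2l1 (r = 0.81), Creld2 (0.80), Pla2g2a (0.80), Gpr20 (0.79) and Edem2 (0.77). Of the members, Asns was 13th (r = 0.71), Phgdh 71st (0.61), Mthfd2 90th (0.59), Trib3 333rd (0.46), Sesn2 372nd (0.45) and Psat1 500th (0.41). Shmt2 was 1532nd (0.25), Slc7a11 1661st (0.23) and Psph 5658th (-0.06). The libraries share group, depth and tissue composition, and these values are a description. Without Winnie replicates 3 and 5, the libraries farthest from the median of Chac1, the 5 values fell to between 0.60 and 0.67. Those of the members fell to 0.53 for Asns, 0.34 for Phgdh, 0.46 for Mthfd2, 0.44 for Trib3, 0.36 for Sesn2, 0.27 for Psat1, 0.12 for Shmt2, 0.09 for Slc7a11 and -0.10 for Psph, and Phgdh moved most among the members.

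The wider pathway was described by 82 other genes in 7 lists, also chosen with earlier results known, of which 80 were tested against C57BL/6. In Winnie 0 of 80 were called with edgeR, 17 were higher and 0 lower at adjusted p under 0.05 with the fold limit, 47 had unadjusted p under 0.05, and DESeq2 called 14. Over all genes 7.42% were higher at that adjusted p, 39.9% had unadjusted p under 0.05 and DESeq2 called 4.31% in either direction. Without Winnie replicate 5 edgeR called 9 list genes, in a fit that called 677 of 17413 genes in place of 16 of 17289. In Winnie-Prolapse 26 of 80 were called higher and 2 lower, beside 9.84% and 8.47% of all genes, which are the shares for each list that follows, and the median log2 fold change was 0.53 against -0.01 over all genes. Without replicate 6 these counts were 25 and 2, beside 8.78% and 6.57% of all genes, with a median of 0.47, and 1 call of a list gene changed, that of Herpud1. At adjusted p under 0.05 with the fold limit, 34 of 80 were higher in Winnie-Prolapse and 5 lower, beside 16.7% and 17.7% of all genes. Without replicate 6 there were 32 and 4 at that limit, beside 2837 and 2878 of 17542 genes. Between the mutant groups 0 of 81 were called with edgeR, 35 had unadjusted p under 0.05, beside 27.8% of all genes, and DESeq2 called 1, beside 2.31%. At adjusted p under 0.05 with the fold limit, Atf5, Cebpb, Slc6a9, Gldc and Ggct were higher and Gdf15 lower. These were 6 of 81, beside 4.27% of all genes higher and 2.72% lower. Without replicate 6 the count was 1 of 81, beside 397 genes higher and 211 lower among all 17212 tested. Gldc was tested only between the mutant groups. Its level varied widely in Winnie-Prolapse, where the mean was 4.94 and the standard deviation 10.8 CPM, while Winnie averaged 0.375 CPM.

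Of ATF4 itself, its kinases and its partners, 3 of 14 genes were called higher in Winnie-Prolapse. Atf4 was not called, with a log2 fold change of 0.18 in Winnie and 0.56 ± 0.08 (SE) in Winnie-Prolapse, below the fold limit. In Winnie-Prolapse it was 1.47-fold higher (adjusted p 4.0e-05, edgeR), and all 7 libraries lay above all controls, a separation found for 6.50% of genes. Cebpb, a dimer partner, rose by 2.08 ± 0.26 in Winnie-Prolapse, Nupr1, a stress cofactor, by 1.27 ± 0.20 and Eif2ak2, the kinase that senses double-stranded RNA, by 0.64 ± 0.08. The ER kinase gene Eif2ak3 (0.41) and the amino acid sensor gene Eif2ak4 (-0.32) were not called. Ppp1r15b, a phosphatase subunit that dephosphorylates eIF2α and the most abundant gene of the list by CPM, was not called (0.54). Ddit3, which encodes CHOP, was not called and had values of -0.42 in Winnie and -0.64 in Winnie-Prolapse. In Winnie-Prolapse it was lower at adjusted p under 0.05 with the fold limit, with 5 of 7 libraries below all controls. Without replicate 6 the Ddit3 value was -0.57, short of that fold.

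Among 9 tested sestrins, tribbles and other stress targets, 1 was called higher, Herpud1 of ER-associated degradation (0.86 ± 0.18, not called without replicate 6 at 0.91), and 1 lower, Gdf15, a stress-induced secreted cytokine that fell by 1.91 on the log2 scale (SE 0.28). These counts are near the shares of all genes. Trib1, a relative of Trib3, was not called (0.05). Of 10 amino acid transporters 3 were called higher and 1 lower. Slc7a5, the large neutral amino acid exchanger, rose by 2.78 ± 0.47, the glycine transporter gene Slc6a9 by 1.56 ± 0.12 and the cationic transporter gene Slc7a1 by 1.03 ± 0.17, while Slc1a5, a glutamine transporter, fell by 0.86 (SE 0.12). Slc7a5 moved most without replicate 6, to 2.01 ± 0.26, and was called there too. Slc3a2, the partner chain of Slc7a11 and Slc7a5, was not called (0.65), nor was the neutral amino acid transporter gene Slc38a2 (0.41). Slc3a2 was higher at adjusted p under 0.05 with the fold limit, but fell short of that fold without replicate 6 (0.46).

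The tRNA list held 12 synthetases and Xpot, which encodes a nuclear exporter of tRNA. All 13 had positive values in both comparisons with C57BL/6, which share the controls. Over all genes 8505 of 17289 were positive in Winnie and 8562 of 17397 in Winnie-Prolapse. In Winnie 1 of the 13, Wars, was higher at adjusted p under 0.05 with the fold limit, beside 7.42% of all genes. In Winnie-Prolapse 6 of the 12 synthetases and Xpot (0.77 ± 0.15) were called higher. Wars, which charges tryptophan tRNA and is also known as an interferon-induced gene, had the largest value of the list (2.49 ± 0.14), followed by Cars for cysteine (0.98 ± 0.12), and Nars for asparagine stood at 0.80 ± 0.12. In the list of serine, proline and one-carbon enzymes 3 of 12 were called higher. These were the mitochondrial folate enzyme genes Aldh1l2 (3.24 ± 0.41) and Mthfd1l (0.97 ± 0.16) and the proline synthesis gene Aldh18a1 (1.30 ± 0.21). The mitochondrial folate genes Mthfd2l (0.52) and Slc25a32 (0.26) and the cytosolic folate genes Aldh1l1 (0.58) and Shmt1 (-0.13) were not called. Of 9 glutathione and cysteine genes 1 was called higher, the glutathione reductase gene Gsr (0.84 ± 0.11), a count near the share of all genes. The transsulfuration genes Cth (-1.12) and Cbs (-0.66) were not called, nor were the glutathione synthetase gene Gss (0.02) and Chac2, the paralog of Chac1 (0.58). At adjusted p under 0.05 with the fold limit, 2 of the 9 were higher and 2 lower, Cth and Cbs. The shares of all genes there were 16.7% and 17.7%.

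ER chaperones and other arms of the unfolded protein response, which ATF4 mostly does not drive, had 8 of 13 genes called higher in Winnie-Prolapse. Hspa5, the ER chaperone BiP, rose by 1.40 ± 0.17, Manf by 1.34 ± 0.13, Creld2 by 1.25 ± 0.15, Calr by 1.14 ± 0.11 and Hsp90b1 by 1.08 ± 0.15. In Winnie 0 of these 13 were called and 7 were higher at adjusted p under 0.05 with the fold limit, beside 7.42% of all genes.

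**Figure D4:**
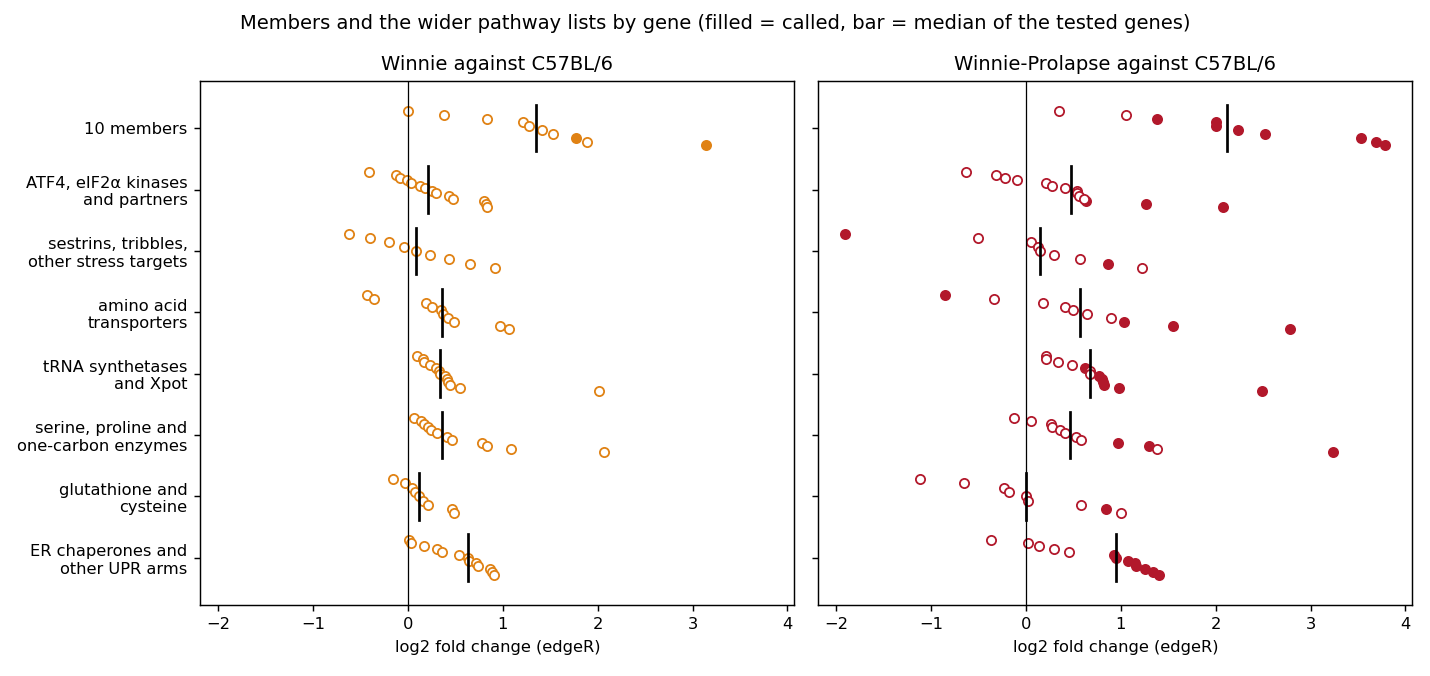
Log2 fold change of each tested gene of the members and the 7 wider lists against C57BL/6, in Winnie (left) and Winnie-Prolapse (right). Filled points were called and the bar is the list's median. In Winnie-Prolapse 26 of 80 list genes were called higher and Gdf15 and Slc1a5 were called lower.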

How the data were processed

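Distal colon RNA of 22 mice was sequenced by the authors as stranded, paired-end poly(A) libraries. The deposited table holds raw counts per gene for 46078 genes, made by the authors on GRCm38 with featureCounts after STAR alignment within RNAsik; the annotation release, strand setting and handling of multi-mapping reads are not given in the sources used here. Counts were divided by the library total for CPM. Each pair of groups was fitted alone in edgeR 4.0.16 (R 4.3.3) with TMM factors, filterByExpr and the quasi-likelihood test, and p-values were adjusted over all genes by the Benjamini-Hochberg method. Genes with adjusted p under 0.001 and at least 1.5-fold were called, the limits of the study. RPKM used exon unions of the GRCm38 annotation. Members and pathway lists were chosen with earlier results of these data known. All 10 members were named in every comparison; of the lists, Atf4, Ddit3, Eif2ak3, Eif2ak4, Chac2, Slc3a2, Slc7a5 and Wars, and per list the 2 called genes with the largest rise and fall in Winnie-Prolapse and the 2 with the highest mean CPM, and the 5 genes most like Chac1. Eif2ak2, Slc7a1, Mthfd1l, Mthfd2l, Slc25a32, Cth, Cbs, Creld2, Xpot, Atf5, Gldc and Ggct were named in addition after their values were seen. The script was tested on simulated data. Alternatives were DESeq2 1.42.0, limma-voom (limma 3.58.1), library sizes without TMM, other filters and limits, adjustment for sex, a single fit of the 3 groups, and leaving out each library. The bias-adjusted quasi-likelihood test of edgeR, the values without the milk-rich library, and the counts at adjusted p under 0.05 with each library left out were chosen after seeing the data. Replicates are separate mice by their labels, standard errors of fold changes include the spread between mice, and the 3-count floors cover counting error only.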

Additional observations from a re-analysis of the deposited data

Results flagged for a closer look

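In 7 of 30 groups of member values (10 genes in 3 groups) 1 library lay far from the rest by Dixon's criterion, each time as the highest. The criterion is met in about 1 in 20 groups of independent, normally distributed values. The CPM values were not tested for normality and the genes share libraries, so no excess over that rate is read from the count. Chac1 had 30.2 CPM in Winnie-Prolapse replicate 5, where the next library had 15.5 CPM. Sesn2 had 24.5 CPM in Winnie-Prolapse replicate 4, with 15.3 CPM next. C57BL/6 replicate 7 stood out for Asns (27.7 against 20.5 CPM), Psat1 (10.98 against 7.41 CPM) and Mthfd2 (9.60 against 4.47 CPM). Slc7a11 stood out in C57BL/6 replicate 5 (6.56 against 2.98 CPM) and in Winnie replicate 2 (22.7 against 9.85 CPM). Their relation to the marker levels was not tested.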

How the results depend on the processing

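For Winnie against C57BL/6, where 2 members were called, 8 passed at adjusted p under 0.05 with the fold limit. The number called was 8 with DESeq2, 4 with all groups fitted together (Trib3 not among them) and 1 with sex in the model. It was 0 without TMM factors, with limma-voom or with at least 10 counts in every library (which leaves Trib3 untested). Calls over all genes numbered 16 in the same test, against 1262 with DESeq2, 199 with all groups together, 15 with sex, 8 without TMM factors and 0 with limma-voom or the stricter filter. Leaving out each library gave 0 to 7. For the wider lists, where 0 were called, 17 passed at adjusted p under 0.05 with the fold limit. The number called was 14 with DESeq2, 1 without a filter on low counts, 2 with all groups fitted together, and 0 to 9 with libraries left out. For Winnie-Prolapse against Winnie 0 were called. At adjusted p under 0.05 with the fold limit, 5 members and 6 list genes (5 higher, 1 lower) passed, beside 4.27% of all genes higher and 2.72% lower. DESeq2 called 2 members and 1 list gene, beside 681 of 29471 genes. The cause of these differences was not tested. In Winnie-Prolapse against C57BL/6 members numbered 7 to 9 and list genes 23 to 39 under all alternatives. Calls over all genes there ran from 2517 without Winnie-Prolapse replicate 5 to 5047 with DESeq2, against 3186 in the main test. At adjusted p under 0.05 with the fold limit, 16.7% of all genes were higher and 17.7% lower. The Sesn2 difference in Winnie, -0.01, was 0.0078 with limma-voom, 0.0086 without a filter, and -0.0853 to 0.108 with libraries left out. Of 678 alternative log2 fold changes of members, 8 changed sign, all of Sesn2 in Winnie. The bias-adjusted edgeR test, chosen after seeing the data, changed no member's call. No paired analysis was possible because replicate numbers follow only the order of the samples.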
